A study of Mus musculus with 25 samples.

Results

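Loss of the SWI/SNF chromatin-remodelling subunit BAF60C in pancreatic beta cells was examined in islets of mice on a high-fat diet (HFD). The experiment comprises 4 of the 25 samples of the series: 2 libraries labelled flox/flox, HFD and 2 labelled BcBKO, HFD. All 4 samples and all 12822 genes of their expression table were taken, and the 11560 genes that reached 1 FPKM in 2 or more libraries were tested. FPKM counts sequenced fragments per kilobase of a transcript and is scaled to the size of the library. Flox/flox mice are taken as the controls and their islets are called control islets below, and BcBKO denotes the beta-cell-specific ablation, made with Pdx1-cre. Both groups were fed HFD for 3 months. Each library was made from islets pooled from at least 3 mice, which lowers the spread between animals that the replicates can show. The strain, the age and the sex are not given in the labels, nor is a group with Pdx1-cre alone. The labels also do not say whether replicates came from separate days, so the p-values below measure the spread between these pooled libraries. The flox/flox and BcBKO groups on chow were not analysed here.

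BAF60C, encoded by Smarcd3, is one of the alternative BAF60 subunits through which transcription factors recruit SWI/SNF complexes, which move nucleosomes with energy from ATP. In beta cells, nutrient metabolism closes potassium channels, calcium enters, and insulin granules fuse with the membrane. Pdx1, whose promoter drives this Cre, is a beta cell transcription factor that is also active in pancreatic progenitors and in some other endocrine cells. Whole islets hold alpha, delta, endothelial and other cells beside beta cells, and in such bulk samples a smaller number of cells of a type and less RNA per cell cannot be told apart.

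The libraries had 11274 to 11560 genes of at least 1 FPKM, and Ins1 and Ins2 made up 57.6 to 67.8% of summed FPKM, so the labelled tissue showed its defining transcripts. Sequencing depth is unknown, because read counts were not used here. Flox/flox replicate 2 stood apart in acinar transcripts, the digestive enzymes of the exocrine pancreas: the acinar list took 10.4% of FPKM there, against 2.86% in flox/flox replicate 1 and 4.34 and 4.22% in BcBKO replicates 1 and 2. Both libraries numbered 1 stood apart from both numbered 2 in immediate early transcripts, at 0.214 and 0.322% against 0.0249 and 0.0341%. For these reasons several results are given both for the groups and within like replicate numbers. The replicate 1 difference is BcBKO replicate 1 minus flox/flox replicate 1 and the replicate 2 difference is its counterpart, both on the log2(FPKM + 1) scale, on which all log2 differences are given. This scale understates differences of genes with low FPKM.

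Smarcd3, the targeted gene, measured 2.57 and 2.55 FPKM in control islets and 3.11 and 2.40 FPKM in BcBKO islets. The groups overlapped, and the group difference was 0.07 (SE 0.152), with a 95% interval from -0.32 to 0.46. Summed over the whole gene in whole islets, this level cannot show whether a floxed part was lost in beta cells, so it does not check the labels. Of 24 SWI/SNF subunit genes tested, 0 passed limma's test. Subunits whose groups did not overlap were 5 higher and 0 lower on the deposited scale, where 25.3% of all tested genes were higher and 4.85% lower without overlap. Those 5 were Smarcc2, a core subunit (57.57 and 48.83 against 65.37 and 59.38 FPKM), Arid1a, the large subunit of the canonical BAF complex, Pbrm1 and Brd7 of the PBAF complex, and Brd9 of the non-canonical complex. After the median scaling described next, 4 were higher and 2 lower. The share on the deposited scale lies near that of all genes, and the list median of 0.05 lies near the median of all tested genes, 0.08.

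That small positive median bears on every count of this kind. After each library was divided by its median ratio to a common reference (median scaling), 13.7% of all tested genes were higher without overlap and 13.8% were lower. List counts without overlap are therefore given on both scales. Of the tested genes, 99 reached the filter through BcBKO alone, with both control libraries under 1 FPKM, and 9 through flox/flox alone. Such genes had to differ, so where a list holds one its count is also given without it. Without these genes 24.7% of the remaining 11452 were higher and 4.82% lower on the deposited scale. No cause of the tilt was tested.

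In BcBKO 1 gene rose and 0 fell by limma with Benjamini-Hochberg adjustment over all tested genes, which is 0.00865% and 0.0% of them. At an unadjusted p under 0.05 there were 427 genes (3.69%). The gene that rose was Zfp423, which encodes a zinc finger transcription factor best known for committing cells to the preadipocyte fate. It reached the filter through BcBKO alone. Its level was 0.19 and 0.15 FPKM in control islets and 12.05 and 15.77 FPKM in BcBKO islets. Both control libraries were close to 0 and both BcBKO libraries were far above them, with a group difference of 3.66 (SE 0.168, 95% interval 3.23 to 4.09, limma adjusted p = 0.0348). Within replicate numbers the differences were 3.46 and 3.87. Which islet cells held the transcript is not shown by bulk FPKM. Leaving out any 1 of the 4 libraries ended the call, at limma adjusted p from 0.13 to 0.591 with 1 residual degree of freedom. Every other tested gene had an adjusted p of at least 0.9999 on the deposited scale. When libraries were set to equal sums without acinar and REG genes, limma's adjusted p was 0.0569 for Reg3a, 0.0793 for Reg3b and Reg3g, 0.105 for Ccl5 and 0.118 for Cck, the lowest after Zfp423 (7.6e-07). On the deposited scale the median 95% interval reached 0.372 log2 units to each side.

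Zfp423 lies on chromosome 8 (GRCm38.p6, 87661810 to 87962053, protein coding). Within 1000000 bases on either side the table holds 10 other genes, of which 8 were tested, and their differences ran from -0.11 for Heatr3 to 0.19 for Brd7. Brd7, the SWI/SNF subunit, measured 10.75 and 11.37 FPKM in control islets and 12.2 and 13.31 FPKM in BcBKO islets. None of the 8 passed limma's test. Between groups 4 of them did not overlap, beside 25.3% of all tested genes higher and 4.85% lower without overlap. So the difference at Zfp423 was many times that of any tested gene around it. Sall1, another zinc finger gene of chromosome 8, which was singled out after its values were seen, measured 0.77 and 0.79 FPKM in control islets and 1.24 and 1.49 FPKM in BcBKO islets.

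Genes linked to Zfp423 in fat cells showed no shift of like size. Pparg, the master regulator of adipocytes, was lower without overlap, at 6.09 and 5.39 FPKM in control islets against 4.93 and 3.62 FPKM in BcBKO islets (difference -0.36). Cebpd, an early adipogenic factor, had 4.26 and 4.01 FPKM against 4.53 and 5.52 FPKM, and Notch1, a cell-surface receptor, had 3.92 and 2.73 FPKM against 5.01 and 4.03 FPKM. Of the 17 tested genes in the list of Zfp423 partners and preadipocyte factors, Zfp423 itself was the 1 that passed. Leaving it out, 4 of 16 were higher and 1 lower without overlap, and 1 and 1 after median scaling. For all tested genes the shares were 25.3% and 4.85%, and 13.7% and 13.8% after median scaling.

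**Figure D1:**
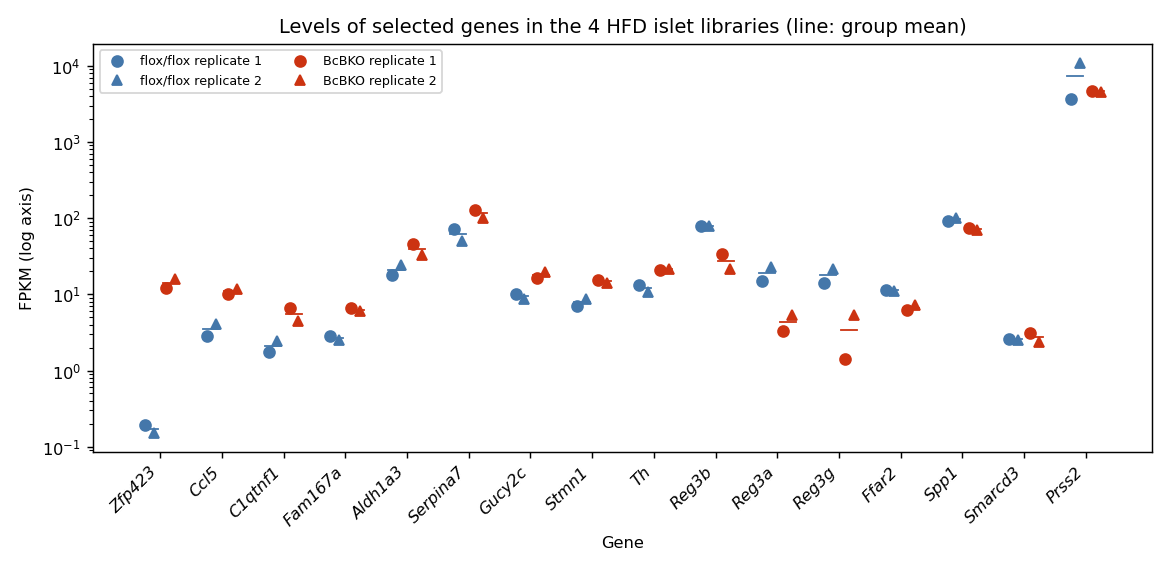
FPKM on a log axis for 16 genes in each of the 4 HFD libraries, blue for flox/flox and red for BcBKO, circles for replicate 1 and triangles for replicate 2, with a line at each group mean. Zfp423 separates most widely, Reg3a, Reg3b and Reg3g lie lower in both BcBKO libraries, Smarcd3 overlaps, and Prss2 is highest in flox/flox replicate 2 at 11020.95 FPKM.

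Acinar genes and predicted genes (such as those with Gm or Rik names) were left out of the ranking that follows. Among non-overlapping genes of at least 5 FPKM in the higher group mean, the 3 lowest differences belonged to REG genes. They encode small secreted C-type lectins, antimicrobial in the gut and induced in pancreas by injury and inflammation, and they form a cluster on chromosome 6 in the order Reg3b, Reg3d, Reg3a, Reg2, Reg1, Reg3g. The windows of 250 bases before the starts of the 3 genes whose groups did not overlap are shown because these genes separated the groups while the 3 others of the cluster overlapped. They are from RefSeq, GRCm38.p6, 5′ to 3′ in the direction of transcription, and capitals mark matches to TATAAA on the given strand, to TTCNNNGAA (the STAT palindrome) and to the E-box CACCTG, the last of these searched on both strands.
Reg3b (chr6:78370635-78370884, plus strand): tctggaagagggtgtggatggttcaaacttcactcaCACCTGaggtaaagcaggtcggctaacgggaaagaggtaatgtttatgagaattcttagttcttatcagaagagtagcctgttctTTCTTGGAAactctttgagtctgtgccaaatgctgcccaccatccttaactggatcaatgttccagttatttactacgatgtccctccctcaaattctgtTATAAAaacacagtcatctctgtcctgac
Reg3a (chr6:78380459-78380708, plus strand): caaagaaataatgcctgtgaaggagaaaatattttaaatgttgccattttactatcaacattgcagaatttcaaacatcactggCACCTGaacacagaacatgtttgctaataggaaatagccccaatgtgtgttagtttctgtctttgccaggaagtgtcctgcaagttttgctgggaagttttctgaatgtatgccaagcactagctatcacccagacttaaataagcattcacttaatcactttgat
Reg3g (chr6:78468875-78469124, minus strand): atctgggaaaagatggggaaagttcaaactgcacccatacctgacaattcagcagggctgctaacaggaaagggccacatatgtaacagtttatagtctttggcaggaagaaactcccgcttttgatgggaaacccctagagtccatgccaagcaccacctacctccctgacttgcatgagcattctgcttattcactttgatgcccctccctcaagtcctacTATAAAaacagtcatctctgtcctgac
In global alignments that allow gaps, the Reg3b and Reg3g windows shared 173 bases (69.2%), Reg3a and Reg3g 143 (57.2%), and Reg3b and Reg3a 137 (54.8%). The TATAAA match began 29 bases before the start in Reg3b and 27 bases before it in Reg3g. Among 32851 promoter windows of the same length, 7.59% held TATAAA, 7.02% held TTCNNNGAA and 17.2% held CACCTG.

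Reg3b measured 77.68 and 77.97 FPKM in control islets and 33.76 and 21.31 FPKM in BcBKO islets. Its control libraries were nearly equal, both BcBKO libraries were lower, and the group difference was -1.50 (SE 0.228). Reg3a measured 14.91 and 23.05 FPKM in control islets and 3.28 and 5.38 FPKM in BcBKO islets, a difference of -1.90 (SE 0.282). Reg3g measured 14.13 and 21.49 FPKM in control islets and 1.42 and 5.42 FPKM in BcBKO islets, a difference of -2.23 (SE 0.488). None of these 3 passed limma's test. Within replicate numbers the differences were -1.18 and -1.82 for Reg3b, -1.89 and -1.91 for Reg3a, and -2.64 and -1.81 for Reg3g.

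The other 3 REG genes overlapped between groups. Reg2 had 142.18 and 195.55 FPKM in control islets and 153.71 and 55.06 FPKM in BcBKO islets, so its low value was that of BcBKO replicate 2 alone. Reg3d followed the same order, with 30.15 and 42.14 FPKM against 35.33 and 16.05 FPKM. Reg1, the most abundant member, had 553.35 and 1496.8 FPKM against 1029 and 668.17 FPKM and was highest in the library richest in acinar transcripts. Over the 6 genes the median difference was -1.18, made up of -0.53 in replicate 1 and -1.81 in replicate 2, beside 0.07 and 0.10 for all tested genes. Without BcBKO replicate 2 it was -0.65.

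Acinar cells are a source of REG transcripts, so their levels are set beside these values. Prss2, an acinar trypsinogen, measured 3688.81 and 11020.95 FPKM in control islets and 4677.16 and 4534.14 FPKM in BcBKO islets. In replicate 1, Prss2 was thus higher in BcBKO while Reg3a, Reg3b and Reg3g were lower. In replicate 2, Prss2 and all 6 REG genes were lower together. REG genes are similar in sequence, so each single value is uncertain where reads could map to more than 1 of them.

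Listed genes for the REG receptor and for STAT3 signalling did not share a direction. Of 17 tested, 4 were higher and 2 lower without overlap (3 and 3 after median scaling). Beside them stand 25.3% and 4.85% of all tested genes (13.7% and 13.8% after median scaling). Lcn2, which encodes lipocalin 2, an antibacterial siderophore-binding protein induced in inflammation, had 3.47 and 5.88 FPKM in control islets and 1.21 and 2.23 FPKM in BcBKO islets (differences of -1.02 and -1.09 within replicate numbers). The higher ones included Il6ra, a receptor chain for interleukin 6, at 41.6 and 32.22 against 44.18 and 42.58 FPKM, and Osmr, the oncostatin M receptor, at 1.59 and 1.5 against 1.94 and 1.95 FPKM.

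Few other genes moved by a full log2 unit within both replicate numbers. There were 4 such genes higher in BcBKO (0.0346% of those tested) and 6 lower (0.0519%). The higher ones were Zfp423, Ccl5, Cck and Prss1, and the lower ones Reg3a, Reg3b, Reg3g, Lcn2, Mmp7 and Xlr4a. Mmp7 and Xlr4a were singled out by this count after their values were seen. Ccl5, a chemokine that draws T cells, had 2.87 and 4.09 FPKM in control islets and 10.07 and 11.88 FPKM in BcBKO islets (difference 1.43, SE 0.181). Cck, the gut hormone cholecystokinin, had 0.51 and 0.28 FPKM against 4.41 and 1.87 FPKM. Cck and Prss1 reached the filter through BcBKO alone. Mmp7, the matrix protease matrilysin, had 1.7 and 2.63 FPKM against 0.28 and 0.55 FPKM.

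**Figure D2:**
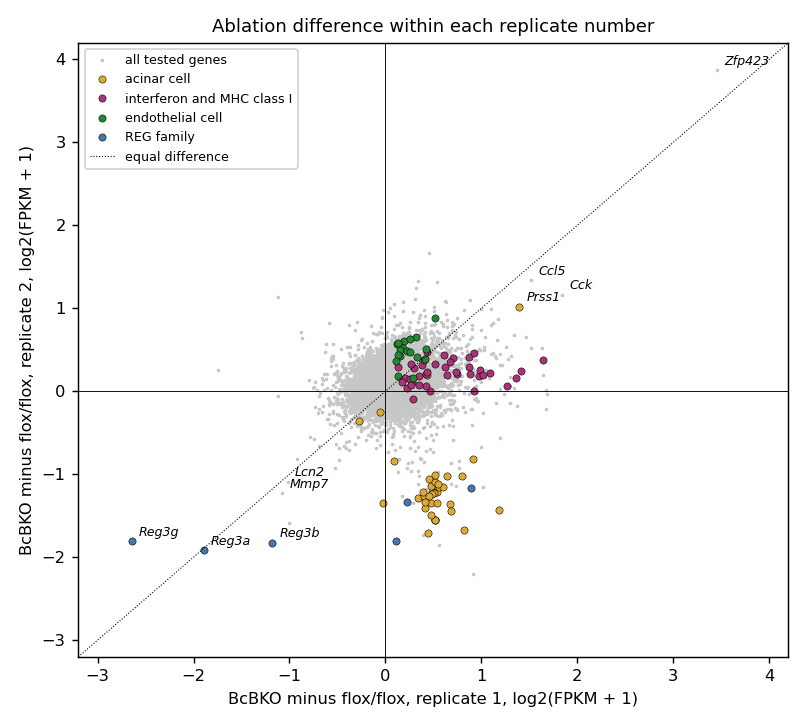
Each point is 1 of the 11560 tested genes, with the BcBKO minus flox/flox difference in log2(FPKM + 1) for replicate 1 on the x axis and for replicate 2 on the y axis. Acinar genes lie to the right and below (medians 0.51 and -1.22), endothelial and interferon genes lie mostly above 0 on both axes, and Zfp423, Reg3a, Reg3b and Reg3g lie near the line of equal difference.

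Of all tested genes, 62.0% had the same direction within both replicate numbers, and 62.2% did once acinar and REG genes were left out. On the deposited scale 50.0% were above 0 in both and 12.0% below 0 in both, and after median scaling these shares were 29.5% and 29.6%.

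Beyond those, the highest differences without overlap included several genes of secreted and membrane proteins. This set asked for at least 5 FPKM in the higher group mean only. A gene could thus enter through 1 group alone, as Fam167a and C1qtnf1 did through BcBKO. Fam167a had 2.84 and 2.51 FPKM in control islets and 6.65 and 5.97 FPKM in BcBKO islets (difference 0.99, SE 0.132). C1qtnf1, a secreted relative of adiponectin, had 1.74 and 2.43 FPKM against 6.54 and 4.41 FPKM (1.06, SE 0.218). Serpina7, thyroxine-binding globulin, had 72.89 and 50.73 FPKM against 129.29 and 100.83 FPKM. Both BcBKO libraries lay above both flox/flox libraries in each of these because the set was chosen that way.

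Gucy2c, the guanylate cyclase receptor for guanylin peptides, had 10.14 and 8.66 FPKM in control islets and 16.21 and 19.43 FPKM in BcBKO islets (0.85, SE 0.148). Cartpt, the precursor of the neuropeptide CART, had 2.09 and 3.49 FPKM against 5.64 and 6.79 FPKM. The same set of 15 held Slco1a6, an organic anion transporter, with 9.61 and 8.12 against 20.16 and 14.25 FPKM, and Sorcs2, a sorting receptor, with 2.85 and 2.4 against 8.19 and 3.93 FPKM. Zfp423, Ccl5, Aldh1a3, Cpne5, Lmo1, Ifit3, Cxcl10 and Ube2c completed it, and of these Cxcl10 and Ube2c stood clearly above the controls in BcBKO replicate 1 alone (8.43 and 8.77 FPKM, against 2.16 and 3.5 FPKM in BcBKO replicate 2). Outside that set, Th, tyrosine hydroxylase, which makes the precursor of the catecholamines, had 13.08 and 10.82 FPKM in control islets and 20.87 and 21.5 FPKM in BcBKO islets (0.78, SE 0.134).

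The matching set of lowest differences again asked for at least 5 FPKM in the higher group mean and left out acinar and predicted genes. Reg3a, Reg3g, Lgi2, Hist1h2bg and Tjp3 entered it through flox/flox alone, with BcBKO means under 5 FPKM. Differences in this set beyond the REG genes were smaller in size. Ffar2, which senses short-chain fatty acids on beta cells, had 11.38 and 11.1 FPKM in control islets and 6.19 and 7.23 FPKM in BcBKO islets (-0.67, SE 0.127). Spp1, the secreted phosphoprotein osteopontin, had 90.61 and 101.4 FPKM against 74.02 and 69.08 FPKM (-0.42, SE 0.128). Lgi2 had 6.36 and 6.55 FPKM against 4.67 and 3.98 FPKM, and Akr1e1, an aldo-keto reductase, had 8.49 and 10.7 FPKM against 6.03 and 6.41 FPKM. Nip7, a ribosome assembly factor, had 11.08 and 9.6 FPKM against 7.51 and 7.13 FPKM. Eif2s1, the alpha subunit of translation initiation factor eIF2, had 16.61 and 16.03 FPKM against 11.09 and 13.25 FPKM. The rest of this set were the histone genes Hist1h2bg and Hist1h4i, whose transcripts largely lack poly(A) tails, and Ep400, Ahcy, Spata5 and Tjp3. None of the genes in these sets other than Zfp423 passed limma's test.

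Islet hormone transcripts did not separate the groups. Ins1 measured 96846.99 and 75697.58 FPKM in control islets and 87065.52 and 88494.22 FPKM in BcBKO islets. Ins2 measured 793654.9 and 552948.9 FPKM against 674265.8 and 647219.6 FPKM, so both insulin genes of BcBKO lay between the flox/flox libraries. Iapp, the amyloid peptide co-secreted with insulin, followed the replicate number rather than the genotype, at 48064.32 and 33459.45 against 50175.08 and 36268.95 FPKM. Gcg, glucagon, was lowest in BcBKO replicate 1 at 11677.22 FPKM, against 15363.65 to 16427.62 FPKM in flox/flox and 16561.61 FPKM in BcBKO replicate 2. Ppy had its lowest value in the same library, at 4329.86 FPKM against 5586.12 to 6393.23 FPKM in the other 3. Sst, somatostatin, had 3698.48 and 3921.11 FPKM against 3512.63 and 4405.48 FPKM.

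Beta cell transcription factors were slightly higher as a list, with a median of 0.13 over 21 tested genes, 5 higher and 0 lower without overlap, and 3 and 1 after median scaling. The non-overlapping members were Pax6 (141.8 and 136.72 against 155.19 and 150.47 FPKM), Hnf4a (6.37 and 6.66 against 8.47 and 8.59 FPKM), Myt1, St18 and Tshz1. The higher counts are close to the shares of all genes, 25.3% and after median scaling 13.7%. Without flox/flox replicate 2 the list median was -0.01, and without flox/flox replicate 1 it was 0.28.

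The glucose-sensing list holds transporters, glucokinase and channels of the triggering pathway. In it 3 of 18 tested genes were higher and 3 lower without overlap (2 and 4 after median scaling). Shares over all tested genes were 25.3% and 4.85% (13.7% and 13.8% after median scaling). G6pc2, the islet glucose-6-phosphatase that opposes glucokinase, had 2499.43 and 1963.39 FPKM in control islets and 1789.14 and 1607.58 FPKM in BcBKO islets (-0.39, SE 0.236). The other lower members were Slc2a2, the glucose transporter GLUT2, and Sytl4 (granuphilin), a granule docking protein, at 57.11 and 49.99 against 47.94 and 47.84 FPKM. The higher members were Cacna1c, an L-type calcium channel subunit (3.91 and 4.17 against 4.87 and 5.13 FPKM), Kcnh6, a potassium channel, and Tmem27, a beta cell membrane protein (454.81 and 381.11 against 511.7 and 472.21 FPKM).

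The granin genes Chgb and Vgf were the non-overlapping members with the largest differences among the 17 tested insulin and prohormone processing genes. Chgb, chromogranin B of the secretory granule, had 435.66 and 510.1 FPKM in control islets and 679.48 and 803.55 FPKM in BcBKO islets (0.65, SE 0.185), with differences of 0.64 and 0.65 within replicate numbers. Vgf, a neuroendocrine secretory peptide precursor, had 14.69 and 13.26 FPKM against 18.47 and 29.75 FPKM. Chga, the related chromogranin A, did not separate, at 7736.24 and 7152.09 against 5659.03 and 7720.27 FPKM. The list as a whole had 4 members higher and 2 lower without overlap (2 and 4 after median scaling). All tested genes had 25.3% and 4.85% (13.7% and 13.8% after median scaling).

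Among 24 tested receptors of incretins and other islet ligands, 6 were higher and 3 lower without overlap, and 2 and 4 after median scaling. For this list and the exocytosis list below, the shares of all tested genes were 25.3% and 4.85%. After median scaling they were 13.7% and 13.8%. Glp1r, the receptor of the incretin GLP-1, had 34.34 and 30.58 FPKM in control islets and 40.49 and 44.05 FPKM in BcBKO islets (0.37, SE 0.125). Ffar1, the long-chain fatty acid receptor of beta cells, had 19.9 and 19.55 FPKM against 25.18 and 23.22 FPKM. The fatty acid receptors thus did not share a direction, since Ffar2 and Ffar4 were lower. Vipr1, a receptor for vasoactive intestinal peptide, was lower as well, at 13.67 and 13.22 against 9.87 and 10.45 FPKM. In the exocytosis list 8 of 20 were higher and 1 lower, and after median scaling 2 and 3, so that its direction rested on the scale.

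Markers used to describe dedifferentiated or progenitor-like beta cells had a median of 0.26 over 11 tested genes, with 5 higher and 1 lower without overlap and 4 and 1 after median scaling. Without Cck, which reached the filter through BcBKO alone, 4 of 10 were higher and 1 lower, and 3 and 1 after median scaling. Over all tested genes 25.3% were higher and 4.85% lower, and 13.7% and 13.8% after median scaling. The list median was 0.65 without flox/flox replicate 1 and 0.80 without BcBKO replicate 2. It was 0.23 without flox/flox replicate 2 and 0.21 without BcBKO replicate 1. Aldh1a3, a retinaldehyde dehydrogenase used as such a marker, had 17.8 and 24.18 FPKM in control islets and 45.43 and 32.79 FPKM in BcBKO islets (0.86, SE 0.222). Gast, gastrin, a fetal islet hormone, had 1.78 and 1.05 FPKM against 3.15 and 2.65 FPKM. Cck and Serpina7, given above, and Cd81 were the other higher members, and Fev, an endocrine transcription factor, was the lower one. Txnip, the glucose-induced inhibitor of thioredoxin, had 361.15 and 257 FPKM against 408.71 and 543.57 FPKM, so its difference was small in replicate 1 (0.18) and large in replicate 2 (1.08). Gpx3, a secreted glutathione peroxidase, had 163.3 and 240.98 FPKM against 275.06 and 344.89 FPKM. Scn3a, a voltage-gated sodium channel, had 3.35 and 2.94 FPKM against 6.07 and 5.87 FPKM.

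Interferon-induced and MHC class I genes were the list with the most members higher in both replicate numbers, and also the list with the most tested genes. By share the endothelial list, given below, was above it at 18 of 18. Of 40 tested genes, 37 were higher in BcBKO in both, and 27 were higher without overlap and 0 lower. After median scaling the counts without overlap were 22 and 0. On the deposited scale 50.0% of all tested genes were higher in both and 25.3% were higher without overlap, or 13.7% after median scaling. Without Ifit2, which reached the filter through BcBKO alone, 26 of 39 were higher, and 21 after median scaling. The median was 0.44, with 0.57 in replicate 1 and 0.22 in replicate 2, and 0 members passed limma's test. Bst2, tetherin, which holds budding viruses at the cell surface, had 13.02 and 12.52 FPKM in control islets and 24.58 and 16.92 FPKM in BcBKO islets (0.64, SE 0.194). Isg15, a ubiquitin-like protein, had 2.24 and 2.18 FPKM against 4.26 and 3.18 FPKM. Ifit3, an antiviral effector, had 3.2 and 4.63 FPKM against 12.08 and 6.28 FPKM. In each of these BcBKO replicate 1 was highest, and without that library the list median was 0.22.

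Leukocyte markers were examined beside the interferon genes. Their summed FPKM over the 10 genes common to leukocytes was 27.66 and 48.21 in control islets and 48.37 and 52.2 in BcBKO islets. On the deposited scale these do not overlap, by a narrow margin. Median scaling divides flox/flox replicate 2 by 0.944 and BcBKO replicate 1 by 1.04, after which the sums overlap. Ptprc, the pan-leukocyte marker CD45, had 0.87 and 1.8 FPKM against 2.16 and 2.08 FPKM. Of the 9 tested, 4 were higher and 0 lower without overlap (3 and 0 after median scaling). Their shares stand beside 25.3% and 4.85% of all tested genes (13.7% and 13.8% after median scaling). The list median was 0.39, and 0.02 without flox/flox replicate 1. Macrophage genes summed to 289.3 and 416.2 FPKM in control islets and 349.6 and 368.6 FPKM in BcBKO islets, with 3 of 18 higher and 2 lower on both scales. Without Cx3cr1, which reached the filter through BcBKO alone, 2 of 17 were higher and 2 lower on both scales. C1qa, a complement subunit made by macrophages, had 42.89 and 51.68 against 64.82 and 58.74 FPKM, while Aif1, another macrophage marker, had 3.16 and 3.48 against 1.85 and 2.79 FPKM.

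The list of 23 T and NK cell genes had only 2 in the table and 0 tested, with a summed FPKM of 0.49 and 1.11 in control islets and 0.86 and 1.3 in BcBKO islets. B and plasma cell genes summed to 21.6 and 24.11 FPKM against 36.13 and 26.4 FPKM, led by Jchain, the joining chain of secreted antibodies, at 5.4 and 7.2 against 13.9 and 9.18 FPKM. MHC class II genes, carried by antigen-presenting cells, were 0 of 7 non-overlapping on both scales, at summed FPKM of 259.0 and 388.7 against 334.4 and 380.1. Among 14 tested chemokine and adhesion genes, 5 were higher without overlap and 0 lower on both scales: Ccl5, Cxcl9, Cxcl10, Icam1 and Vcam1. Cxcl9, an interferon-induced chemokine, had 0.19 and 0.58 FPKM against 1.72 and 1.16 FPKM, and so reached the filter through BcBKO alone. Without it, 4 of 13 were higher and 0 lower on both scales. The share of all tested genes higher without overlap was 25.3% on the deposited scale and 13.7% after median scaling. The part of leukocytes in the interferon and chemokine values was not tested.

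Endothelial genes were higher in BcBKO in all 18 tested members in both replicate numbers on the deposited scale, beside 50.0% of all tested genes. Without overlap 15 of 18 were higher and 0 lower, and 14 and 0 after median scaling, beside 25.3% and 13.7% of all genes. The list median was 0.36, with 0.21 in replicate 1 and 0.49 in replicate 2, and it ranged from 0.28 to 0.48 when 1 library was left out. Cdh5, the cadherin of endothelial junctions, had 7.92 and 8.51 FPKM in control islets and 10.93 and 12.58 FPKM in BcBKO islets (0.47, SE 0.128). Eng, a TGF-beta co-receptor of endothelium, had 30.67 and 25.17 FPKM against 38.56 and 40.2 FPKM (0.49, SE 0.139). Kdr and Flt1, receptors for VEGF, had 17.75 and 17.41 against 22.62 and 23.57 FPKM and 15.89 and 14.67 against 21.48 and 19.53 FPKM. No member passed limma's test.

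Pericyte and smooth muscle genes, from the cells that wrap islet capillaries, followed the same direction, with a median of 0.35. Without overlap 7 of 9 tested genes were higher and 0 lower (6 and 0 after median scaling), beside 25.3% and 13.7% of all genes higher. Acta2, smooth muscle actin, had 9.99 and 9.71 FPKM in control islets and 13.09 and 19.23 FPKM in BcBKO islets. Rgs5, a pericyte marker, had 42.04 and 42.19 FPKM against 49.87 and 53.02 FPKM, and Pdgfrb, the PDGF receptor of pericytes, had 4.1 and 4.26 against 5.1 and 6.09 FPKM. Stellate and matrix genes differed from these: 3 of 19 were higher without overlap, Col4a1, Sparc and Thbs1, and 1 after median scaling, with 0 lower on both scales. The median of 0.27 turned to -0.22 without flox/flox replicate 1 and to -0.02 without BcBKO replicate 2. This list ran with the replicate number, at summed FPKM of 143.1 and 199.5 in the libraries numbered 1 and 251.1 and 296.0 in those numbered 2.

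**Figure D3:**
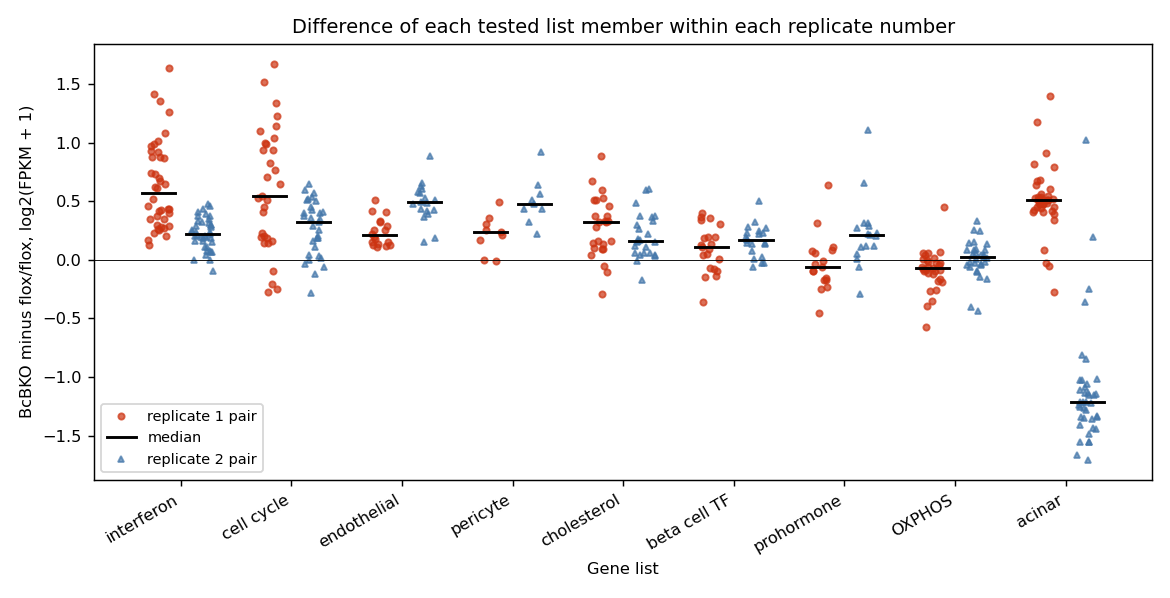
BcBKO minus flox/flox difference in log2(FPKM + 1) of every tested member of 9 gene lists, circles for replicate 1, triangles for replicate 2, and a bar at each median. The 18 endothelial genes lie above 0 in both replicates, the interferon genes are higher in replicate 1 than in replicate 2 (medians 0.57 and 0.22), and the acinar genes point in opposite directions.

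Cell cycle genes were higher without overlap in 19 of 31 tested members and lower in 0, beside 25.3% and 4.85% of all tested genes. After median scaling the counts were 16 and 0, beside 13.7% and 13.8%, and 0 members passed limma's test. Of the 31 tested members 7, Kif20a among them, reached the filter through BcBKO alone. Without them 12 of 24 were higher and 0 lower, and 9 and 0 after median scaling, with a median of 0.36. Over the 31 the median was 0.44, with 0.55 in replicate 1 and 0.32 in replicate 2, and it ranged from 0.35 to 0.61 when 1 library was left out. Top2a, the topoisomerase of dividing cells, had 0.89 and 1.74 FPKM in control islets and 4.42 and 2.93 FPKM in BcBKO islets. Birc5, survivin, had 0.85 and 1.3 FPKM against 3.09 and 2.09 FPKM, and Kif20a, a mitotic kinesin, had 0.52 and 0.8 FPKM against 2.01 and 1.55 FPKM. Stmn1, a microtubule-destabilising protein and more abundant than these, had 7.06 and 8.64 FPKM against 15.55 and 14.12 FPKM (0.84, SE 0.142). Bulk FPKM does not show which islet cells held these transcripts.

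Cholesterol and fatty acid synthesis genes had a median of 0.25 over 25 tested. It was 0.321 in replicate 1 and 0.163 in replicate 2, and 0.255 and 0.0565 after median scaling. Without overlap 14 were higher and 0 lower, and 8 and 1 after median scaling, beside 25.3% and 13.7% of all genes higher. Hmgcs1, an early enzyme of the mevalonate pathway, had 18.8 and 21.2 FPKM in control islets and 35.57 and 24.19 FPKM in BcBKO islets. Insig1, the sterol-induced brake on SREBP, had 67.16 and 63.09 FPKM against 107.79 and 81.5 FPKM. Scd2, a fatty acid desaturase, had 15.31 and 17.46 FPKM against 22.31 and 24.9 FPKM. The list also held Sqle, Idi1, Fdft1 and Srebf2 among its higher members.

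Energy and protein turnover genes had small medians on the deposited scale. Oxidative phosphorylation genes had 1 higher and 3 lower of 30 without overlap and a median of -0.02. After median scaling this became 1 higher and 12 lower and -0.11. Beside the counts of this paragraph, 25.3% of all tested genes were higher and 4.85% lower. These shares were 13.7% and 13.8% after median scaling. The 12 of 30 lower lie above that last share, as do the 9 of 26 proteasome genes given below. Atp5g1, an ATP synthase subunit, had 150.85 and 128.76 FPKM in control islets and 114.68 and 124.58 FPKM in BcBKO islets, while Ndufa1 of complex I had 133.36 and 135.22 against 182.61 and 170.84 FPKM. Proteasome genes had 0 higher and 4 lower of 26, and 0 and 9 after median scaling, among them Psmb2 at 86.03 and 79.89 against 69.45 and 73.62 FPKM. Unfolded protein response genes had 0 higher and 2 lower of 21, and 0 and 3 after median scaling. The 2 were the chaperone gene Calr and the transcription factor gene Xbp1, the latter at 186.42 and 184.74 against 183.17 and 171.21 FPKM. Cytosolic ribosomal protein genes had a median of 0.06 over 30, near that of all genes, with 5 higher and 0 lower, and 0 and 2 after median scaling.

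**Figure D4:**
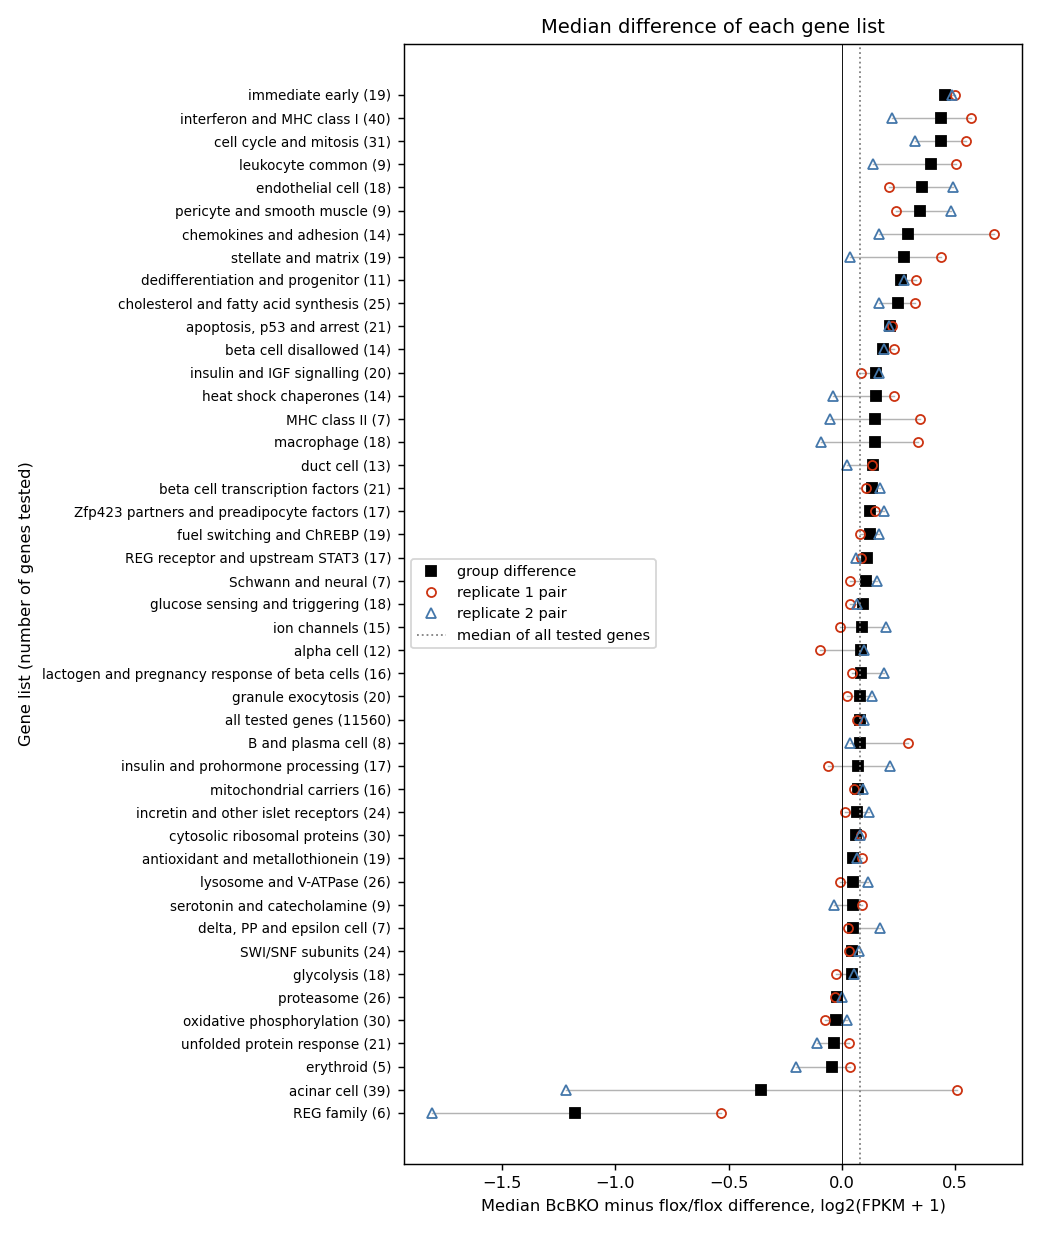
Median BcBKO minus flox/flox difference in log2(FPKM + 1) of every gene list with at least 5 tested genes, squares for the groups, circles for replicate 1, triangles for replicate 2, with a dotted line at the median of all tested genes, 0.08. The REG and acinar lists lie lowest for the groups, and the acinar list has its replicate medians at 0.51 and -1.22.

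The acinar list pointed in opposite directions within the replicate numbers. Of 39 tested genes, 36 overlapped between groups, with 1 higher and 2 lower on both scales, and the replicate differences had medians of 0.51 and -1.22. The group median of -0.36 became 0.44 without flox/flox replicate 2. Against that pattern, Prss1, cationic trypsinogen, had 0.53 and 0.45 FPKM in control islets and 3.03 and 1.94 FPKM in BcBKO islets, higher in both replicate numbers, and reached the filter through BcBKO alone. Trypsinogen genes are a family of near-identical copies, and how reads were shared among them is not given in the sources used here. Sycn, a zymogen granule protein, and Gatm, which makes a creatine precursor, were lower without overlap, at 1964.74 and 4822.39 against 1933.78 and 1897.58 FPKM and at 45.76 and 50.85 against 43.98 and 42.74 FPKM. Among 13 tested duct genes, 1 was higher (Cldn3) and 1 lower (Spp1), and 0 and 2 after median scaling. For both lists the shares of all tested genes were 25.3% and 4.85%, and 13.7% and 13.8% after median scaling.

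Replicate number, rather than genotype, carried the largest differences in the table. In both genotypes 79 genes were at least 1 log2 unit lower in replicate 2 than in replicate 1, and 6 were at least 1 higher. They held 17 of 19 tested immediate early genes and 4 of 14 heat shock chaperone genes, families known for a rapid and transient response to stimuli. Fos, an AP-1 subunit, had 708.28 and 46.95 FPKM in control islets and 950.86 and 72.37 FPKM in BcBKO islets. Egr1, a growth-induced zinc finger factor, had 334.36 and 20.7 FPKM against 506.27 and 36.48 FPKM. Hspa1a, an inducible HSP70, had 575.98 and 38.77 FPKM against 669.6 and 62.95 FPKM.

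Within like numbers the immediate early genes were still higher in BcBKO, with medians of 0.50 and 0.49. On the deposited scale 16 of 19 were above 0 in both, beside 50.0% of all tested genes. No member was free of overlap between groups, and the group median of 0.45 ranged from -0.88 without flox/flox replicate 2 to 1.86 without BcBKO replicate 2. Klf2 and Fosl2 are the members named by the rule on list members: Klf2, an endothelial and T cell factor, had 27.16 and 5.56 FPKM in control islets and 40.42 and 9.23 FPKM in BcBKO islets. Fosl2, an AP-1 subunit, had 2.39 and 1.22 FPKM against 4.36 and 1.92 FPKM.

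Transcripts of retrocopies, intronless copies of a gene elsewhere in the genome, followed the replicate number too; these genes were chosen after their values were seen. Rps27rt measured 1014.64 and 10.68 FPKM in control islets and 1354.34 and 14.32 FPKM in BcBKO islets. Its parent Rps27, a protein of the small ribosomal subunit, had the opposite order, at 329.57 and 1080.75 against 97.73 and 1291.09 FPKM. Their sum varied far less, from 1091.4 to 1452.1 FPKM over the 4 libraries. The sum was not even for the other 2 named retrocopies with a parent in the table: Rpl37rt and Rpl37 together had 1024.6 and 310.04 FPKM in control islets and 1068.8 and 326.49 FPKM in BcBKO islets, and Rnf138rt1 and Rnf138 had 27.06 and 10.38 against 30.47 and 11.26 FPKM. Levels of near-identical copies are therefore uncertain here, and no cause was tested.

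**Figure D5:**
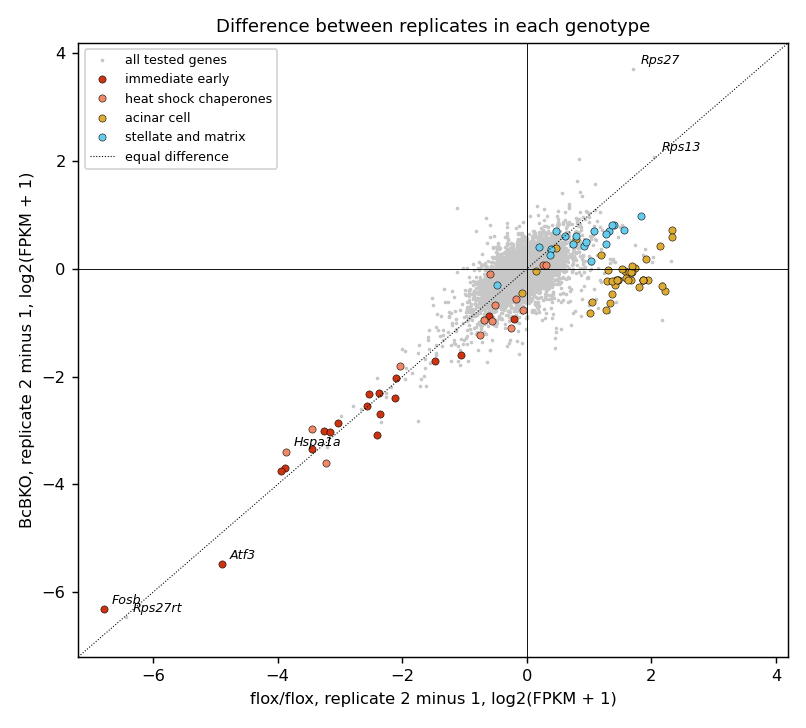
Each point is 1 of the 11560 tested genes, with the replicate 2 minus replicate 1 difference in log2(FPKM + 1) in flox/flox on the x axis and in BcBKO on the y axis. Immediate early genes and Rps27rt lie far to the lower left, near the line of equal difference, while acinar genes differ between the replicates of flox/flox (median 1.58) and little between those of BcBKO (median -0.20).

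The authors' deposited table of this comparison calls 21 genes at an adjusted p under 0.05, 14 higher and 7 lower in BcBKO, and 19 of them were tested here (0.112% of tested genes higher and 0.0519% lower). In all 21 the FPKM of the groups did not overlap, beside 25.3% of all tested genes higher and 4.85% lower without overlap. The calls rest on the same 4 libraries, so this is no separate support for them. Besides Zfp423, Ccl5, C1qtnf1, Fam167a, Gucy2c, Th, Scn3a, Ffar2, Lgi2 and the 3 REG genes, the authors' deposited table holds genes outside the naming rule, which were chosen for their place there. Svopl, a transporter-like gene, had 1.39 and 1.05 FPKM in control islets and 3.4 and 3.39 FPKM in BcBKO islets. Lama5, the alpha chain of basement membrane laminins, had 1.51 and 2.27 FPKM against 3.63 and 4.07 FPKM. Mlph, melanophilin, a Rab27a effector in organelle transport, had 2.2 and 1.88 FPKM against 0.69 and 0.63 FPKM. Muc4, a membrane mucin, had 20.73 and 25.63 FPKM against 29.88 and 31.96 FPKM. The remaining ones were Fam212b, Cdhr2, Tenm4, Itih5l-ps and Tex11, of which Itih5l-ps and Tex11 were under the filter.

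A further pair of groups in the series, CTR_PBS and KO_PBS with 2 libraries each, comes from other samples and a table normalized separately, and the labels do not spell out the gene meant by KO. Its values are set beside those on HFD as a description. Zfp423 was higher there too, at 0.1 and 0.1 FPKM in CTR_PBS and 2.67 and 2.47 FPKM in KO_PBS. Ccl5 was at 2.39 and 2.05 against 7.33 and 7.29 FPKM, Cck at 0.22 and 0.15 against 2.26 and 4.43 FPKM, and Ffar2 at 11.63 and 10.94 against 3.92 and 4.26 FPKM, all in the direction seen on HFD. Mlph, Lgi2 and Vipr1 were lower in KO_PBS as well, with Mlph at 1.36 and 1.37 against 0.32 and 0.53 FPKM. The leukocyte marker Ptprc was higher there, at 0.66 and 0.79 against 5.43 and 4.94 FPKM. The macrophage gene C1qa was about level, at 32.69 and 34.37 against 33.86 and 32.43 FPKM. The part of leukocytes in the Ccl5 values was not tested.

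The REG3 genes and Lcn2 had the opposite direction in that table. Reg3b was at 667.18 and 633.85 FPKM in CTR_PBS and 1226.52 and 1180.61 FPKM in KO_PBS, Reg3g at 119.37 and 126.2 against 250.91 and 268.37 FPKM, and Lcn2 at 1.3 and 1.57 against 4.97 and 5.33 FPKM. The acinar gene Prss2 was at 21125.27 and 22091.29 against 40725.21 and 42786.32 FPKM there, several times its HFD level, and its part in the REG values was not tested. Fam167a, Gucy2c, Th, Serpina7 and Aldh1a3, higher on HFD, were not clearly higher in KO_PBS: Th was at 10.88 and 10 against 7.19 and 6.48 FPKM, and Fam167a at 2.13 and 1.93 against 2.44 and 2.21 FPKM. The endothelial genes named above had lower FPKM in KO_PBS, with Kdr at 19.29 and 19.41 against 10.83 and 10.41 FPKM, Flt1 at 18.33 and 17.57 against 10.8 and 10.71 FPKM, Eng at 18.93 and 17.69 against 15.59 and 16.86 FPKM and Cdh5 at 6.22 and 6.58 against 5.8 and 5.57 FPKM. Lower FPKM in KO_PBS was not particular to these genes or to Ffar2, Lgi2 and Vipr1. Ins2 was at 639897.61 and 666117.63 against 404393.46 and 393546.62 FPKM, and Pax6 at 42.29 and 41.29 against 24.48 and 24.62 FPKM. Other genes were not lower, such as Rpl3 at 332.79 and 333.24 against 352.59 and 357.37 FPKM. The difference between the HFD and PBS comparisons was not tested.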

How the data were processed

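Islet messenger RNA was sequenced as paired ends on the BGISEQ-500, per the labels' protocols. The authors deposited FPKM and TPM for the 4 HFD libraries, with their own log2 fold changes, p-values and adjusted p-values, for which no tool is named. FPKM of the PBS table were also deposited by the authors and used for side-by-side values. The build is GRCm38.p6 per the submitters' processing notes, and the aligner and counting program are not given in the sources used here. The deposited log2 fold changes were copied and not recomputed. Counts were not used here, so no counting interval or detection floor is given.

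Here limma 3.58.1 in R 4.3.3 (trended empirical Bayes, 2 residual degrees of freedom) was fitted to log2(FPKM + 1) of the 11560 genes that reached 1 FPKM in 2 or more libraries. The filter left out 1262 genes. The two-sided p-values were adjusted by Benjamini-Hochberg, with a threshold of 0.05. Groups do not overlap when both libraries of one lie above both of the other. Fitted to simulated data of 11560 genes for this comparison, the test recovered 20% of 2-fold, 84% of 4-fold, 96% of 8-fold and 100% of 16-fold changes, with 1.96% of calls false. The planted changes lay in the more abundant genes, were sized on the log2(FPKM + 1) scale, and were mostly 4-fold or more. Many large planted changes ease the adjustment of p-values, so these rates can overstate recovery in the real data. Alternatives were no filter, at least 5 FPKM, a pseudocount of 0.1, median scaling, equal sums without acinar and REG genes (also without insulin genes), TPM, no trend, replicate number as a block, and leaving out each library.

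Named genes are hormones, Smarcd3, Zfp423, Prss2, REG genes and the 10 most abundant. The 15 highest and 15 lowest non-overlapping genes of at least 5 FPKM outside the acinar list are named too. Predicted genes (with a Gm, LOC, AC or BC number, or Rik) were left out of those 15 and 15. From each of 46 gene lists up to 4 members by p are named. The members and lists were chosen with earlier results of these data known. Of 12822 genes, 12820 matched the RefSeq table by Entrez identifier, and the files left 0 value columns without a sample. A few named genes are not reported here.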

Additional observations from a re-analysis of the deposited data

How the results depend on the processing

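Zfp423 was the 1 gene called, with 0 lower, under no filter, the 5 FPKM filter, a pseudocount of 0.1, median scaling, both equal-sum scalings, TPM and no trend. With any 1 library left out limma called 0 genes higher and 0 lower, each time testing 1 library against 2 with the lone library assumed to vary like the other group. With replicate number as a block (1 residual degree of freedom) limma called 2 genes higher, Zfp423 and Ccl5, and 2 lower, Reg3a and Reg3g, at adjusted p = 0.000912, 0.0183, 0.00205 and 0.0421, and Reg3b missed at 0.061. The labels do not say that the numbers pair libraries, but replicate 2 minus replicate 1 differences correlated across genes at 0.669 between the genotypes, which is a hint from the data.

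Of the alternatives for named genes, 2394 kept direction and side of the threshold, 3 gained a call, 4 lost one and 33 reversed. Median scaling reversed Iapp (-0.00296), Ins1 (-0.0563), Rpl3 (-0.0125), Rpl32 (-0.028), Scg2 (-0.0386) and Sst (-0.0453). Equal sums without insulin genes reversed Ins1 (-0.015) and Sst (-0.00407), and TPM reversed Ins2 (0.0287). With 1 library left out the log2 difference ranged from -0.348 to 0.885 for Bag3, -0.394 to 0.0536 for Chga, -0.444 to 0.06 for Gcg, -0.0853 to 0.475 for H2-Ab1, -0.0732 to 0.422 for H2-Eb1, -0.0418 to 0.552 for Hspb8, -0.172 to 0.35 for Iapp, -0.142 to 0.214 for Ins1, -0.265 to 0.257 for Ins2, -0.452 to 1.65 for Klf2, -0.469 to 0.173 for Lpl, -0.438 to 0.124 for Ppy, -1.26 to 0.32 for Prss2, -0.444 to 0.12 for Pyy, -0.851 to 0.583 for Reg1, -0.0612 to 0.168 for Scg2, -0.0663 to 0.207 for Smarcd3 and -0.117 to 0.21 for Sst. The cause was not tested. Of 45 gene lists with a tested member, 17 kept the sign of their median in all 13 settings.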
